A study of Equus caballus with 3 samples.

Results

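The genes described here are 10 components of the antigen presentation machinery, *B2M*, *TAP1*, *TAP2*, *TAPBP*, *PSMB8*, *PSMB9*, *DRA*, *CD74*, *CIITA* and *NLRC5*, among 29927 genes listed for equine mesenchymal stromal cells (MSCs). They were chosen by name, as a basis for comparing the potential immunogenicity of MSCs from different tissues, and 10 of 10 were found in the matrices. The cells were grown from 3 tissues of 1 Warmblood mare, 10 years old, namely fat or adipose tissue (AT), marrow (BM) and circulating blood (PB), and were profiled after 2 passages by droplet single-cell RNA sequencing with the 10x 3′ chemistry, with 1 library per source. The labels name no treatment for any of the 3 cultures. Because a source was 1 culture of 1 mare in 1 library, source and library cannot be told apart, no test was run, and every 95% interval below (exact Poisson for sums, exact Clopper-Pearson for shares) covers counting error only. The titles of the samples name the tissue, whereas their source names give blood mononuclear cells for all 3, and the titles were followed.

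MHC class I molecules display peptides from inside the cell to cytotoxic T cells. The immunoproteasome, with *PSMB8* and *PSMB9* among its catalytic subunits, cuts proteins into peptides. The transporter formed by *TAP1* and *TAP2* carries them into the endoplasmic reticulum, tapasin (*TAPBP*) bridges the transporter and the empty class I molecule, and beta-2-microglobulin (*B2M*) is the light chain that every classical class I molecule needs. *NLRC5* is the transactivator of class I genes. MHC class II molecules display peptides to helper T cells and are normally restricted to professional antigen-presenting cells, but interferon gamma can induce them in stromal cells through the class II transactivator *CIITA*. *DRA* encodes the class II DR alpha chain and *CD74* the invariant chain that guards the class II groove. Mismatched MHC molecules on donor MSCs are a known route to recognition by a recipient horse.

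Barcodes with 2500 to 15000 unique molecular identifiers (UMIs) and at most 3% of UMIs on the mitochondrial chromosome were kept, which left 5403 AT-, 5580 BM- and 5318 PB-derived MSCs with median depths of 7291, 6874.5 and 7750 UMIs. The 10 stromal markers (such as *COL1A1*, *THY1* and *ENG*) were detected in each source, with a summed level of 14560 to 21952 CPM (UMIs of a gene scaled to a library total of 1000000), and of 5 haematopoietic markers *PTPRC*, *CD48* and *CD53* were at 0 in all 3, while *LAPTM5* had 5, 48 and 46 UMIs and *CORO1A* 99, 151 and 66 in AT, BM and PB. Of the kept barcodes, 119 in AT, 89 in BM and all 5318 in PB also occurred in another library, and 76, 77 and 72 were kept there too. For each source, UMIs were added up over kept cells before conversion to CPM. Differences are those of log2(CPM + 1), and are called 2-fold at 1 or more with at least 1 CPM in the higher source. The log2(CPM + 1) scale understates the ratio of genes near 1 CPM. A sum of 3 UMIs, used as a simple limit where 0 were counted, corresponds to 0.0750 CPM in AT, 0.0746 in BM and 0.0721 in PB.

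Transcripts of the class I pathway were present in every source and were highest in PB for *B2M*, *TAP2*, *TAPBP*, *PSMB8* and *PSMB9*, whereas *DRA* and *CD74* transcripts were nearly confined to a few PB-derived MSCs. Between BM and AT, *TAP1* and *PSMB9* were at least 2-fold higher in BM and 0 of the 10 genes were lower. Of 11862 genes with at least 1 CPM in the higher source, 11.6% were past 2-fold in either direction, 8.78% higher and 2.86% lower. Of the 10, only *B2M*, *TAP1*, *TAP2*, *TAPBP*, *PSMB8* and *PSMB9* reached 1 CPM in AT or BM. *DRA*, *CD74*, *CIITA* and *NLRC5* could thus not be called between these sources, and *CIITA* and *NLRC5* were under 1 CPM in PB as well. Between PB and AT, *TAP1*, *PSMB8* and *PSMB9* were higher in PB and 0 lower, beside 11.2% of 11721 genes, 6.22% higher and 4.96% lower. Between PB and BM, *PSMB8* and *PSMB9* were higher in PB and 0 lower, beside 8.78% of 11805 genes, 2.47% higher and 6.31% lower. *DRA* and *CD74* were past 2-fold in PB as well, for 5 and 4 genes in all, but reached 1 CPM in PB alone and are not set against these shares. Without a PB cluster of 40 cells that is described below, 3 were higher in PB than in AT and 0 in PB than in BM, beside 6.14% and 2.39% of all genes. Over genes with at least 1 CPM in the higher source, the median log2 difference was 0.24 for BM over AT, 0.04 for PB over AT and -0.20 for PB over BM. The medians of the 10 genes, 0.12, 0.93 and 0.54, were taken without that minimum and with *DRA* and *CD74*. They are therefore not like for like with the medians of the background. Keeping every barcode of at least 500 UMIs took AT from 5403 to 10493 barcodes. Under this setting 0 of the 10 were past 2-fold higher in BM than in AT, beside 7.64% of all genes. *PSMB8* and *PSMB9* were past 2-fold higher in PB than in AT, beside 5.02%. *CD74* was too, but is again not set against the share. After thinning to 2500 UMIs, 1 was higher in BM than in AT, beside 9.26%. The comparisons share libraries, so these counts are not independent of each other.

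**Figure D1:**
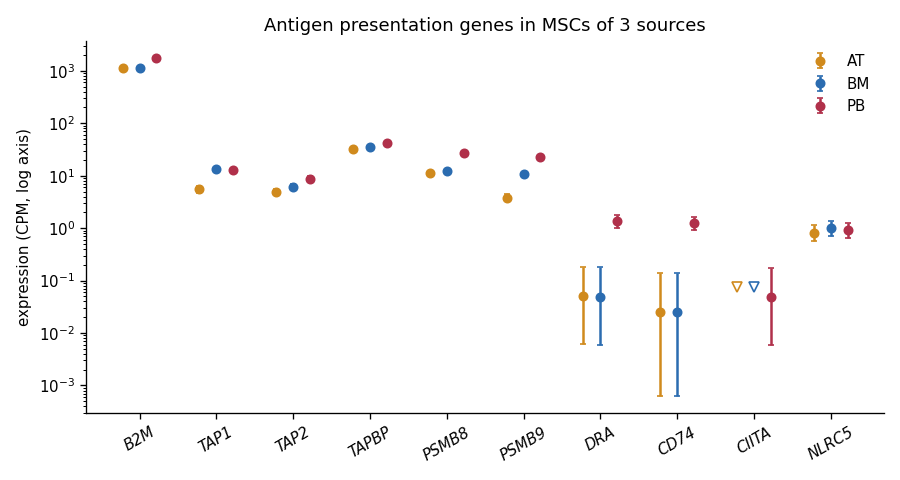
Expression of the 10 genes (CPM, log axis) in AT-, BM- and PB-derived MSCs. Points are sums over all kept cells of 1 library, bars are exact 95% Poisson intervals, and open triangles mark the limit of 3 UMIs where 0 were counted. *B2M* lies at 1129 to 1781 CPM in the 3 sources, and *DRA* and *CD74* reach 1 CPM in PB alone.

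*B2M*, listed on chromosome 1, was at 1129 CPM in AT (95% interval 1119 to 1139), 1151 CPM in BM (1141 to 1162) and 1781 CPM in PB (1768 to 1794). PB stood above both other sources, by 0.66 over AT and 0.63 over BM on the log2 scale, and neither difference reached 2-fold. The level in BM was 0.03 above AT on the log2 scale, and this order turned to -0.25 when the libraries were scaled by TMM factors. *B2M* is also used as a reference gene in RT-PCR, including in the study. Among 10 such reference genes, its ratio of 1.58 between the highest and the lowest source ranked between *YWHAZ* at 1.45 and *ACTB* at 1.89, with *GAPDH* at 1.13 and the transferrin receptor *TFRC* at 4.96.

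The peptide transporter differed between its chains. *TAP1* was at 5.48 CPM in AT (4.78 to 6.25), 13.2 CPM in BM (12.1 to 14.4) and 13.1 CPM in PB (12.0 to 14.2). BM and PB overlapped in their intervals and both lay past 2-fold over AT, with log2 differences of 1.13 and 1.12. Under TMM factors the difference of BM over AT was 0.88 and no longer past 2-fold. *TAP2* was at 4.90 CPM in AT (4.24 to 5.64), 6.19 CPM in BM (5.44 to 7.01) and 8.79 CPM in PB (7.92 to 9.74). The intervals of AT and BM overlapped, PB lay above both, and no difference reached 2-fold. Tapasin, *TAPBP*, was at 32.5, 35.3 and 41.5 CPM in AT, BM and PB, a range of at most 0.34 on the log2 scale. For *TAPBP* the order of BM and AT turned under TMM factors, to -0.16. The share of cells with a *TAP1* UMI was 3.91% in AT, 8.76% in BM and 9.50% in PB, and for *TAPBP* it was 20.99%, 21.9% and 26.7%.

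Of the 10 genes, the class I gene with the largest difference between sources was *PSMB9*. It was at 3.83 CPM in AT (3.24 to 4.48), 10.7 CPM in BM (9.75 to 11.8) and 22.8 CPM in PB (21.4 to 24.3), with no overlap between the 3 intervals. PB over AT was 2.30 on the log2 scale, BM over AT 1.28 and PB over BM 1.02. *PSMB8* was at 11.4 CPM in AT (10.3 to 12.4) and 12.6 CPM in BM (11.5 to 13.7), whose intervals overlap and whose order turned under TMM factors, and at 26.8 CPM in PB (25.2 to 28.4). Its log2 difference was 1.17 over AT and 1.03 over BM. Without the 40-cell cluster, PB over BM was 0.94 for *PSMB8* and 0.89 for *PSMB9*, no longer past 2-fold. After the median over genes with at least 1 CPM in the higher source was subtracted, PB over BM was 1.23 for *PSMB8* and 1.22 for *PSMB9*. BM over AT was then 1.04 for *PSMB9* and 0.89 for *TAP1*. The share of cells with a *PSMB9* UMI was 2.70% in AT, 7.06% in BM and 14.1% in PB, and for *PSMB8* it was 7.92%, 8.17% and 16.8%. When every cell was thinned to 2500 UMIs, the shares with *PSMB9* were 0.907%, 2.74% and 5.08%, in the same order. No cell type that lacks the genes was identified here to set these shares against.

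*PSMB8*, *PSMB9* and *PSMB10* replace the constitutive subunits *PSMB5*, *PSMB6* and *PSMB7* in the immunoproteasome. *PSMB9* made up 1.90% of the summed UMIs of *PSMB9* and *PSMB6* in AT (1.62 to 2.23%), 4.46% in BM (4.06 to 4.89%) and 9.05% in PB (8.51 to 9.62%). *PSMB8* made up 3.24% with *PSMB5* in AT, 3.15% in BM and 6.99% in PB. *PSMB10* made up 10.7%, 8.25% and 14.6% with *PSMB7*. All 3 shares were highest in PB, while the lowest source was AT for *PSMB9* and BM for *PSMB10*, and AT and BM overlapped in their intervals for *PSMB8*. These shares compare sources and are not the ratio of the subunits in the particle, since genes can be captured with different efficiency.

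**Figure D2:**
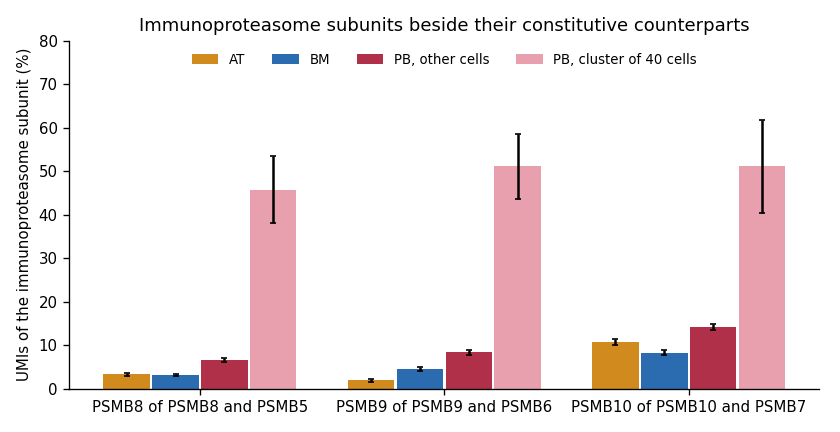
Share of UMIs (%) that belonged to the immunoproteasome subunit, of the sum with its constitutive counterpart, in AT, in BM, in the PB cells outside the 40-cell cluster described below and in that cluster. Bars start at 0 and carry exact 95% Clopper-Pearson intervals, and the 40-cell cluster stands at 45.7% to 51.1% in all 3 pairs while the other groups stay under 15%.

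*TAP2*, *PSMB8*, *TAP1* and *PSMB9* follow each other on chromosome 20 as consecutive protein-coding genes in the RefSeq annotation of the horse assembly TB-T2T. *TAP1* and *PSMB9* overlap there, and the matrices list them on opposite strands. The authors left out exons that overlap on opposite strands, so part of either transcript may be uncounted. The intervals of BM and PB overlapped for *TAP1* and did not for its neighbour *PSMB9*.

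*NLRC5* was rare everywhere, with sums of 33, 40 and 38 UMIs for AT, BM and PB, or 0.825, 0.994 and 0.913 CPM. All 3 intervals overlap, and the 95% interval of the ratio of PB to AT, 0.675 to 1.82, holds no 2-fold difference.

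The class II genes were close to or under the limit of detection in AT and BM. Over all kept cells of AT, BM and PB, *DRA* had 2, 2 and 56 UMIs and *CD74* had 1, 1 and 52. The ratio of PB to AT was 26.9 for *DRA* (7.11 to 228) and 49.9 for *CD74* (8.58 to 2010), with log2(CPM + 1) differences of 1.16 and 1.13. *CIITA* had 0 UMIs in AT and BM, which allows up to 0.0555% and 0.0538% of cells with a UMI, and 2 UMIs in PB. No fold is given for *CIITA*, since no source exceeded 3 UMIs. The PB sums came from few cells, with *DRA* in 14, *CD74* in 10 and both in 5 of 5318, and up to 23 UMIs of *DRA* lay in 1 cell, a clumping that the Poisson intervals leave out. The DR beta chain *DRB*, in contrast, was detected at 18.96 CPM in AT, 24.8 CPM in BM and 21.1 CPM in PB, in 12.9% to 16.1% of cells. *DQA*, an alpha chain of the DQ molecule, had 0, 0 and 22 UMIs and was not past 2-fold. Of the 22, 18 lay in 2 cells of the PB cluster described below, and up to 13 lay in 1 cell. Other class II genes of the wider list did not share this pattern. *DQB* had 11, 10 and 6 UMIs in AT, BM and PB, with overlapping intervals. *HLA-DQB1* had 0, 2 and 2 UMIs, and *HLA-DMA* was at 2.93, 3.58 and 3.44 CPM.

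Of a wider list of 51 antigen presentation genes outside the 10, 47 were in the matrices. With 39 to 40 of them at 1 CPM or more, 3 were higher and 1 lower in BM than in AT, 7 higher and 1 lower in PB than in AT, and 3 higher and 0 lower in PB than in BM. Over all genes the shares higher were 8.78%, 6.22% and 2.47% and the shares lower 2.86%, 4.96% and 6.31%. The count for BM over AT was near the background. The counts with PB include *CD274*, which reached 1 CPM in PB alone. The gene lower in PB than in AT was *CD80*, which of that pair reached 1 CPM in AT alone. The counts with PB are therefore not read against these shares. The list was drawn up with earlier results of these data known. The class I heavy chains *EQMHCB2* and *EQMHCC1* belong to a family of near-identical copies whose reads may be split, so their levels are uncertain. *EQMHCB2* was at 138 CPM in AT, 108 CPM in BM and 199 CPM in PB, and *EQMHCC1* was 1.16 higher in PB than in AT on the log2 scale. *MHCB3*, named after its values were seen, ran the other way, at 5.38, 2.26 and 1.63 CPM. For the other list genes the pair of sources with the largest difference is given. Among regulators, *IRF1*, a transcription factor of interferon responses, was 1.53 higher in PB than in BM, and *JAK2* was 1.33 higher in BM than in AT. The interferon gamma receptor chain *IFNGR2* was at 1.83 CPM in AT, 23.1 CPM in BM and 15.4 CPM in PB. The tapasin relative *TAPBPL* was 1.22 higher in PB than in AT, and the chaperone *HSPA5* 1.79 higher in PB than in BM. *CTSS*, a protease that trims the invariant chain, was 1.16 higher in BM than in AT. Of the costimulatory and inhibitory ligands, *CD274* (PD-L1) was 1.30 higher and *CD80* 1.04 lower in PB than in AT.

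*B2M* was widely detected but its level varied between cells. At 2500 UMIs per cell AT cells held 2.88 UMIs on average, BM cells 3.00 and PB cells 4.45, and 12.0%, 11.6% and 4.87% of cells had none. The variance was 1.79, 1.96 and 2.85 times the mean, so the spread exceeded that of counting alone in each source, in which it would equal the mean. The largest values of single cells were 20, 21 and 77 UMIs. Without the 40-cell cluster the PB ratio was 2.19.

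**Figure D3:**
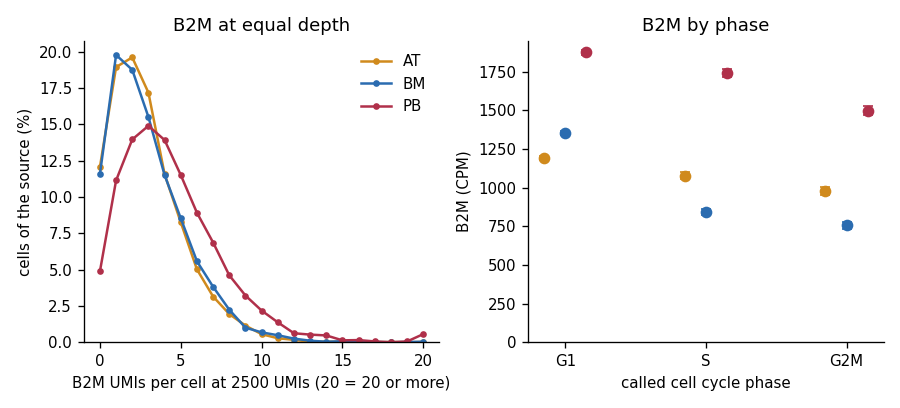
*B2M* UMIs per cell after thinning to 2500 UMIs, as the percentage of cells of each source (left), and *B2M* level (CPM) by called cell cycle phase with exact 95% Poisson intervals (right). The PB curve lies to the right of AT and BM, and *B2M* falls from G1 to G2M in every source, from 1355 to 756 CPM in BM.

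By called cell cycle phase, *B2M* was highest in G1 in every source. It was at 1192 CPM in G1, 1078 in S and 978 in G2M in AT, at 1355, 842 and 756 CPM in BM, and at 1877, 1742 and 1498 CPM in PB. *PSMB8* was in the same order, from 14.99 CPM in G1 to 7.42 CPM in G2M in BM and from 29.99 to 18.5 CPM in PB. *TAPBP* did not follow, at 35.6 and 35.4 CPM in G1 and G2M of BM. *TAP1* and *PSMB9* had overlapping intervals in G1 and G2M of BM.

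Within each source the cells were clustered again, which gave 8 clusters in AT, 8 in BM and 10 in PB. Leaving aside the smallest PB cluster, *B2M* ranged from 711 to 1510 CPM over the AT clusters, from 596 to 2147 CPM over BM and from 893 to 2749 CPM over PB. In the lowest clusters of AT and BM, 0% and 9.74% of cells were called G1, and the lowest PB cluster was the shallowest, with a median of 3721 UMIs. The highest BM cluster, of 94 cells, also had the highest *EQMHCB2* level of that source, 381 CPM. In PB the cluster of 384 cells with the highest *B2M* held 454 CPM of *EQMHCB2* and 24.3 CPM of *TAP2*, whereas *PSMB9* was highest, at 43.2 CPM, in another cluster of 380 cells. *PSMB9* ranged from 2.19 to 7.20 CPM over the AT clusters, whose intervals are wide, and from 6.92 to 17.6 CPM over BM. Levels of *TAP1* in AT, 3.02 to 8.28 CPM, stayed below the lowest BM cluster, at 11.4 CPM. A cluster is defined by these same genes among others, so the ranges are a description.

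**Figure D4:**
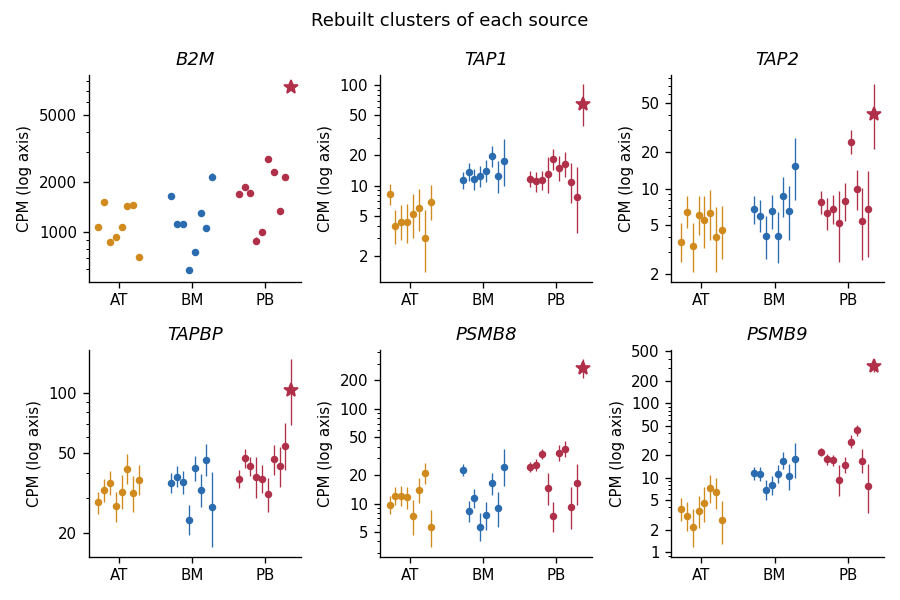
Level (CPM, log axis) of 6 class I pathway genes in the clusters of each source, ordered by cluster number, with exact 95% Poisson intervals. The star marks the 40-cell PB cluster, which lies above every other cluster for all 6 genes.

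Over the 24 clusters with at least 100 cells, and centred on the mean of each source, the genes with the pattern most like *B2M* were ENSECAG00000033828 (Pearson r of 0.954), *EQMHCB2* (0.939), *IFI6* (0.935), *PLBD2* (0.931) and *MGMT* (0.905), of 1983 genes compared. The clusters share 3 libraries and differ in depth and phase, so these are descriptions. At 2500 UMIs, *PSMB8* and *PSMB9* were found together in 40 PB cells, beside 17.3 for the product of their shares, and in 29 beside 15.5 without the 40-cell cluster. In AT the same pair was found in 1 cell beside 1.26, and in BM in 6 beside 4.74. Other pairs varied in PB. *TAP1* and *PSMB8* were together in 10 cells beside 10.2, *TAP2* and *PSMB9* in 6 beside 6.04 and *TAP2* and *TAPBP* in 25 beside 12.1. *TAP1* and *PSMB9* were together in 18 beside 8.07 and *TAPBP* and *PSMB9* in 44 beside 27.5. The remaining pairs were *TAP1* and *TAP2* (6 beside 3.56), *TAP1* and *TAPBP* (17 beside 16.2), *TAP2* and *PSMB8* (13 beside 7.63) and *TAPBP* and *PSMB8* (40 beside 34.8).

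The 40-cell PB cluster, picked as the cluster with the highest summed CPM of 26 interferon-stimulated genes that include none of the 10, had 9263 CPM of these genes against 330 in the remaining PB cells. For 6 of the 10 genes, all of the class I pathway, the level there was at least 2-fold higher and for 0 lower, beside 31.8% of 11621 genes past 2-fold in either direction and 10.3% upward, and *CIITA*, with 2 UMIs in the cluster and 0 outside it, is not counted. *DRA* and *CD74* reached the minimum of 1 CPM through the cluster alone and are not counted either. *NLRC5* was under 1 CPM in the cluster and in the remaining PB cells and could not be called. At resolution 0.8 the cluster picked in the same way had 36 cells, all of them among the 40. Without regression of the cell cycle it had 40 cells, of which 38 were among the 40. At resolution 0.4, or with the antigen presentation genes left out of the clustering, most of the 40 cells fell into clusters of 415 and 410 cells. In each of these *PSMB8* and *PSMB9* were past 2-fold higher, beside 1.38% of all genes. *DRA* and *CD74* were too, but again reached 1 CPM through the cluster alone and are not counted. *B2M* was at 7352 CPM against 1742, *TAP1* at 65.1 against 12.7, *TAP2* at 41.1 against 8.57 and *TAPBP* at 103 against 41.1. *PSMB8* was at 271 CPM against 25.1 and *PSMB9* at 322 against 20.7. *DRA* was at 161 CPM against 0.218 and *CD74* at 164 against 0.0968, so that 83.9% of the *DRA* UMIs and 92.3% of the *CD74* UMIs of PB lay in these 40 cells. A UMI of *DRA* was found in 17.5% and one of *CD74* in 15% of the 40, and 1 cell held 23 of the 47 *DRA* and 34 of the 48 *CD74* UMIs. Without that cell, left out after seeing the data, the cluster had 84.9 CPM of *DRA* and 49.5 CPM of *CD74*, and PB as a whole 0.793 and 0.433 CPM, under the minimum for a call. *NLRC5* had 0 UMIs in the cluster, which allows up to 10.3 CPM, above its level of 0.919 CPM in the remaining cells. With all 40 cells included and the 11621 genes ranked by log2 ratio, *PSMB9* had rank 40 and *B2M* rank 228. *DRA* and *CD74* entered that ranking through the cluster alone, so their ranks are not given.

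The cells of this cluster had the stromal markers at 22313 CPM against 21949 in the remaining cells, with 0 of 10 past 2-fold. Of the 5 haematopoietic markers, *PTPRC*, *CD48*, *CD53* and *LAPTM5* were at 0 in it and *CORO1A* had 1 UMI. Also at 0 were 10 of 11 macrophage or monocyte markers and 6 of 6 endothelial markers. Its median depth of 7003 UMIs was near that of PB. Within it, *B2M* ranged from 4 to 260 UMIs per cell with a median of 38, against 0 to 126 with a median of 12 in the other PB cells. The cell with the most class II transcripts also held 260 UMIs of *B2M*, together with 638 UMIs of the interferon-stimulated genes. Another cell held 7 of *DRA*, 9 of *CD74* and 146 of *B2M*, with 476 of the interferon-stimulated genes. Of the 14 cells with *DRA*, 7 were in the cluster, and 2 of 2 cells with *CIITA* were.

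The calls of *DRA* and *CD74* between sources rested on these cells. Without the cluster, an alternative chosen after seeing the data, PB was past 2-fold over AT for 3 genes (*TAP1* at 1.08, *PSMB8* at 1.08 and *PSMB9* at 2.17), beside 6.14% of all genes. *DRA* and *CD74* were at 0.21 and 0.10. *DRA* was then at 0.218 CPM in PB, from 9 UMIs, beside 0.0500 CPM in AT, from 2 UMIs. Over BM, 0 of the 10 were then past 2-fold, beside 2.39% of all genes higher. *DRA*, *CD74*, *CIITA* and *NLRC5* were under 1 CPM in the remaining PB cells and in BM and could not be called.

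The 10 genes were also read along the interferon-stimulated level of single cells. When PB cells were thinned to 2500 UMIs and binned by their interferon-stimulated UMIs, *B2M* was at 1570 CPM in the 2522 cells with 0, 1758 CPM in 1742 cells with 1, 2096 CPM in 990 cells with 2 to 4, 3952 CPM in 33 cells with 5 to 9 and 7587 CPM in 31 cells with 10 or more. *PSMB9* was at 17.6, 20.2, 27.5, 84.8 and 387 CPM in the same bins. Of the 31 cells with 10 or more, 22 belonged to the 40-cell cluster, and of the 33 with 5 to 9, 9 did, so the upper bins and the cluster share cells. *TAP1* was at 11.1, 12.4 and 12.1 CPM over the first 3 bins. In the bin with 5 to 9 it was at 12.1 CPM, from 1 UMI. In the bin with 10 or more it was at 77.4 CPM (28.4 to 169), from 6 UMIs. In the bin with 0 of AT and BM, *B2M* was at 1086 and 1114 CPM and *PSMB9* at 2.99 and 12.1 CPM. *TAP1* in that bin was at 4.18 CPM in AT, 11.2 in BM and 11.1 in PB. *B2M* was higher in each of the first 3 bins than in the one before in AT and BM as well, to 1383 and 1391 CPM. *PSMB9* was at 2.99, 4.21 and 6.12 CPM in AT, the last from 8 UMIs, and at 12.1, 11.1 and 10.5 CPM in BM. *TAP1* was at 4.18, 6.84 and 3.06 CPM in AT, the last from 4 UMIs, and at 11.2, 9.29 and 9.94 CPM in BM. The bins above hold 7 and 2 cells in AT and 14 and 7 in BM. Summed over all kept cells, the interferon-stimulated genes were at 208 CPM in AT, 237 in BM and 393 in PB. Whether the interferon-stimulated level had a part in the differences between sources was not tested.

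**Figure D5:**
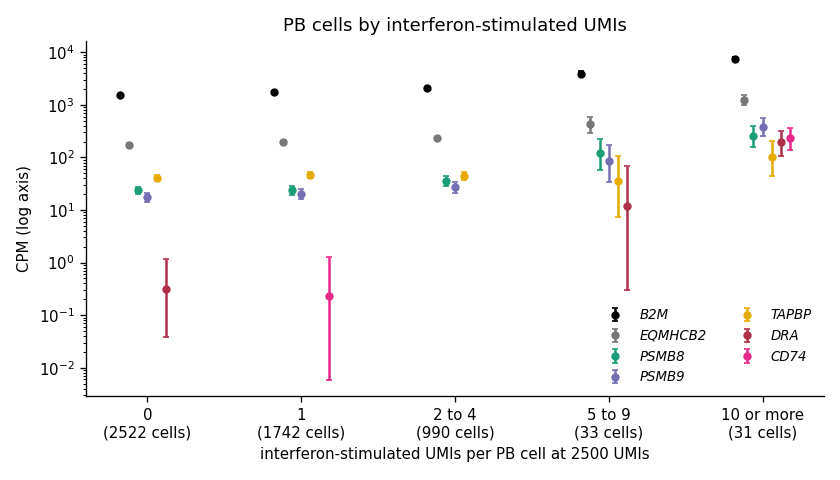
Level (CPM, log axis) of 7 genes in PB cells grouped by interferon-stimulated UMIs, after thinning to 2500 UMIs, with exact 95% Poisson intervals. Bins without a UMI of a gene have no point, and *B2M*, *PSMB8* and *PSMB9* are highest in the bin with 10 or more.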

How the data were processed

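Cells of the 3 sources were captured after 2 passages. Per the labels and the paper's methods, the authors ran Cell Ranger with EquCab3.0 and counted UMIs with ESAT. The deposited values are raw counts: whole numbers of UMIs for each gene in each barcode. The multiplet caller of the methods was not run, and Scrublet scores served as an alternative. Counts were summed over kept cells (2500 to 15000 UMIs, at most 3% mitochondrial), giving 39980656, 40239295 and 41622445 UMIs in AT, BM and PB. Intervals came from SciPy 1.17.1. Each source was clustered in R 4.3.3 (sctransform 0.4.2, Seurat 5.3.0) on 3000 variable genes, with 20 neighbours, a resolution of 0.6 and regression of the cell cycle. The members and gene lists were chosen with earlier results of these data known. The 10 genes are all named, along with the list genes past 2-fold between any pair of sources, at most 10, of which 1 is not reported here. The ratio computation was tested on simulated Poisson counts. Sequences were not analysed here.

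Alternatives were other barcode limits, thinning to 2500 UMIs, TMM factors (edgeR 4.0.16), a pseudocount of 25 CPM, no minimum level and means of single-cell CPM. Further ones were G1 cells only, Scanpy 1.11.5's Scrublet with its top 5% of scores removed, removal of shared barcodes, and other clustering settings. For shares of cells, asking for more than a single UMI was added.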

Additional observations from a re-analysis of the deposited data

Results flagged for a closer look

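The AT library held 5711 barcodes under the lower limit of 2500 UMIs that the PB library also held. Part of them enter the comparisons above only where every barcode of at least 500 UMIs was kept, and the rest enter none. Over all 5711 barcodes *B2M* was at 1685 CPM (95% interval 1649 to 1722), above the 1129 CPM of the kept AT cells. *PSMB9* was at 25.4 CPM there against 3.83 CPM in the kept AT cells, and *DRA* at 1.22 CPM, from 6 UMIs, against 0.0500 CPM. In the 444 AT barcodes under the limit that the PB library did not hold, *B2M* was at 742 CPM, *PSMB9* at 6.55 CPM and *DRA* at 3.27 CPM, from 2 UMIs. All 40 barcodes of the PB cluster occurred in the AT library, where 1 of them was kept. Whether UMIs of the shared barcodes in the AT library came from PB-derived MSCs was not tested.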

How the results depend on the processing

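No paired analysis was possible because each source has 1 library. Of 42 alternative values of the counts past 2-fold, 31 stayed within 1.5 times the reported count and 11 did not. With all barcodes of at least 500 UMIs, the count between AT and BM went from 2 to 0 and that between AT and PB from 5 to 3. The 5 include *DRA* and *CD74* and the 3 include *CD74*, which are not set against the shares of all genes. Of the 6155 AT barcodes under 2500 UMIs, 5711 were also held by the PB library, with *PSMB9* at 25.4 CPM. Not all of the 5711 were among the barcodes that this setting added, and their part in the lost calls was not tested. Between AT and BM the count was 1 after thinning to 2500 UMIs and 1 with TMM factors, *PSMB9* in both. A pseudocount of 25 CPM left 0 in each of the 3 comparisons of sources, since it outweighs genes at these levels. Without the 40-cell cluster, the counts were 3 for AT and PB and 0 for BM and PB, beside 6.14% and 2.39% of all genes higher in PB. For the cluster, the count of 9, with *DRA*, *CD74* and *CIITA* with its 2 UMIs included, became 4 at resolution 0.4. It was also 4 when the listed genes were left out of the variable genes, and each 4 includes *DRA* and *CD74*. *DRA*, *CD74* and *CIITA* reached 1 CPM through the cluster alone. Only the remaining genes are set beside the shares of all genes higher, 10.3% for the cluster and 1.38% in both other settings. In these 2 settings the 40 cells lay mostly inside clusters of 415 and 410 cells. At resolution 0.8 and without regression of the cell cycle, clusters of 36 and 40 cells held 36 and 38 of them. Of 360 log2 ratios, 44 moved beyond their counting interval and 0 called ones turned direction. Of 270 shares of cells, 73 moved beyond theirs. The settings for shares include thinning to 2500 UMIs and asking for 2 UMIs in place of 1, which cannot raise a share. The count of 73 is therefore in part fixed by these settings. Removing barcodes held by another library left 0 PB cells, so it gave a value for AT and BM alone. With 1 library per source, no spread between cultures is known, and *CIITA*, *NLRC5* and the class II genes in AT and BM are limited by depth.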

Other observations

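Barcodes that were not kept held 12 UMIs of *DRA* in AT, on 10 barcodes of which 3 also had a *DRA* UMI in PB, 0 in BM and 12 in PB, on 2 barcodes.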
